A study of Mus musculus with 37 samples.

Results

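The 55 genes described here encode proteins of DNA replication and of mitosis. They were chosen by name, with earlier results of these data known, among the 35290 genes of the count files. The 55 are 24 S-phase genes and 31 mitosis genes. Each symbol matched 1 row, and all 55 passed the filter on low counts. RNA sequencing had counted reads per gene in 37 libraries of mouse pre-B cells. The cells came from adult bone marrow on a C57BL/6 background without Arf (Arf-/-), whose product activates p53, and carried BCR-ABL1 in its p185 form, the fusion kinase of Philadelphia chromosome leukemia. Both properties were shared by every group, and the medium contained no added cytokine. The cells held the vector MIG-IK6 (called IK6 cells), which adds the dominant-negative IK6 isoform of the transcription factor IKAROS to green fluorescent protein, or the empty vector MIG (MIG cells). Each kind was treated with ATRA (all-trans retinoic acid, which acts through retinoic acid receptors), bexarotene (a ligand of retinoid X receptors), carbacyclin (an analog of prostacyclin) or NOE (N-oleoylethanolamine, a fatty acid amide), at 1 µM in DMSO, or with DMSO alone. There were 4 libraries in each of 7 groups and 3 libraries for bexarotene in IK6 cells, carbacyclin in IK6 cells and bexarotene in MIG cells. How long the treatment lasted is not stated in the labels. They also do not say whether the libraries of a group came from separate cultures, mice or transductions, and p-values therefore measure only how far these libraries spread, which may be technical.

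In a dividing cell, CDC6 and CDT1 load the MCM helicase onto origins before S phase, and CDC45 and the GINS complex turn it into the moving helicase of the replication fork. Genes of this kind are switched on late in G1 by E2F transcription factors. Mitosis genes peak later, in G2 and mitosis, and are controlled through a promoter element called CHR, to which the MuvB complex binds together with B-MYB and FOXM1. In resting cells MuvB is part of the repressive DREAM complex instead. RNA of both kinds is therefore used as a measure of how much of a culture is cycling. In RNA from whole cultures, fewer cycling cells and less RNA per cell cannot be told apart.

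Depth varied between 16.5 and 80.4 M counts (median 35.1 M). The share of counts on ribosomal protein genes was 7.31 to 11.5% in 34 libraries and higher in the other 3, all of MIG cells: carbacyclin replicate 4 (15.5%), DMSO replicate 3 (15.4%) and bexarotene replicate 3 (12.5%). Counts of Ikzf1, the gene of IKAROS, do not separate isoforms. They ran from 350.3 to 537 CPM (the count relative to library size, scaled by edgeR's trimmed mean of M values, here and below) in IK6 libraries and from 204 to 364 CPM in MIG libraries. At each of the 5 treatments the IK6 and MIG libraries did not overlap. The 10 pre-B markers were measured in all groups, with a sum of 3642 to 7933 CPM per library. Summed myeloid markers stayed between 4.08 and 20.6 CPM, with 2 to 4 of 11 at 0 counts in a group. The sums were 70.4 to 261 CPM for T and NK cell markers, 13.7 to 262 CPM for erythroid and megakaryocyte markers, and 46.6 to 117 CPM for stromal and endothelial markers. Of these, 1 to 2 of 11, 1 to 2 of 10, 3 of 10 and 1 to 2 of 7 reached 1 CPM in a group. The sums differed between treatments, and their part in the results below was not tested.

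Promoter sequences of 4 members are printed to show where letters that match E2F sites or CHR occur in them. The 4 were chosen for holding such a match, so its presence in them is not a result. RefSeq promoter windows of 300 bases (250 before and 50 after a transcription start, build GRCm38.p6, not the mm9 build of the counts) were matched by symbol for 45 members. Shown are the 2 S-phase members with an E2F match and the 2 mitosis members with a CHR match that had the highest mean CPM (not scaled by length), taking a gene's first window with a match. The S-phase members are Mcm6 (chr1:128359656-128359955, minus strand) and Mcm7 (chr5:138171834-138172133, minus strand), and the mitosis members are Mki67 (chr7:135716330-135716629, minus strand) and Top2a (chr11:99024140-99024439, minus strand). Each runs 5′ to 3′ on the gene's strand, and capitals mark matches on either strand to CHR (spelled TTTGAA, with the variant TTCGAA), to the box called CCAAT, or to E2F (TTTCCCGC, TTTCGCGC, TTTGCCGC or TTTGGCGC).
Mcm6: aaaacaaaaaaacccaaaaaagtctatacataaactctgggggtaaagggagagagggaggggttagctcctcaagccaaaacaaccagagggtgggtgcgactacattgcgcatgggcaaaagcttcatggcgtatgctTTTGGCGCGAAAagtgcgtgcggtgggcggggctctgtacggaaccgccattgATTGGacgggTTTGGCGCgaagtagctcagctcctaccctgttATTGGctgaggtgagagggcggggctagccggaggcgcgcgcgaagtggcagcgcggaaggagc
Mcm7: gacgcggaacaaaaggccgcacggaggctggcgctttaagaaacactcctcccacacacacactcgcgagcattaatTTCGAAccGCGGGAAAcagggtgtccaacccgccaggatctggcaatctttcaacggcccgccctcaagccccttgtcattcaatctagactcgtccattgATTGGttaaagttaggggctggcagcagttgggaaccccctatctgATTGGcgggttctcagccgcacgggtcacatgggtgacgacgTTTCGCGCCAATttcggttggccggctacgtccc
Mki67: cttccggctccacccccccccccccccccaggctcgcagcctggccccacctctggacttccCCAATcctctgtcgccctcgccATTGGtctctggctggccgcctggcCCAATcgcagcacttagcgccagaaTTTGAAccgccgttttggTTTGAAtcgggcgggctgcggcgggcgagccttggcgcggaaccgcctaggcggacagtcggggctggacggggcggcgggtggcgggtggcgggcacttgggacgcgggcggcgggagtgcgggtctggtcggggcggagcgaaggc
Top2a: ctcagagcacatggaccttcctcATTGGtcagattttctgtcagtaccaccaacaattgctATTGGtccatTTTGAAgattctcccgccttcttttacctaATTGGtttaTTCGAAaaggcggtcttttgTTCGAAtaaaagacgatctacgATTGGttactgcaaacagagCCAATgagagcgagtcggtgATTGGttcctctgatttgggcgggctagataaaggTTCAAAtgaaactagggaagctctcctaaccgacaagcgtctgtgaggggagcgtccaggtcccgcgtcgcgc

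Mcm6 holds 3 E2F matches, of which 2 overlap each other, and 2 CCAAT matches, with 0 of CHR. Mcm7 holds 2 E2F matches, one of them overlapping a CCAAT match, 3 CCAAT matches in all and 1 CHR match. Mki67 holds 2 CHR and 3 CCAAT matches, Top2a 4 CHR and 6 CCAAT matches, and both have 0 of E2F. Across the members matched, CHR was found in 22 of 27 windows of mitosis genes (20 of 25 genes) and in 6 of 22 windows of S-phase genes (6 of 20 genes), against 14.1% of the 12286 windows of genes tested here and 19.2% of all 32851 windows. E2F was found in 8 of 22 S-phase windows and 1 of 27 mitosis windows, against 3.78% of windows of tested genes. CCAAT was found in 15 of 22 S-phase and 24 of 27 mitosis windows, against 37.9%. A CHR match began within 50 bases of a start in 19 mitosis genes and 3 S-phase genes. These are matches of letters, not measured binding.

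All 4 compounds lowered most of the mitosis genes in both kinds of cell. Most S-phase genes fell with ATRA and NOE in both and with bexarotene in IK6 cells, fewer fell with bexarotene in MIG cells, and with carbacyclin more of them rose than fell. A gene is said to have risen or fallen where it passed edgeR's quasi-likelihood test against DMSO (Benjamini-Hochberg adjusted p under 0.05 over 15699 tested genes). With ATRA, 54 fell and 0 rose among the 55 members in IK6 cells, and 52 fell and 1 rose in MIG cells. Over all tested genes, 43.6% passed in IK6 cells (20.9% downward) and 41.8% in MIG cells (21.2% downward). With bexarotene, 53 fell and 0 rose in IK6 cells, against 41.8% of all genes passing (19.4% downward). In MIG cells with bexarotene, 41 fell and 2 rose, against 38.1% of all genes (18.2% downward, 19.9% upward). With carbacyclin, 25 fell and 13 rose in IK6 cells, against 39.6% of all genes (18.8% downward, 20.8% upward). In MIG cells with carbacyclin, 33 fell and 10 rose, against 48.0% of all genes (23.3% downward, 24.7% upward). With NOE, 55 fell and 0 rose in IK6 cells and 54 fell and 0 rose in MIG cells, against 40.9% (18.2% downward) and 44.9% (22.3% downward) of all genes in those cells. The members' median log2 change ran from -1.60 with NOE in MIG cells to -0.17 with carbacyclin in IK6 cells, and the median of all tested genes stayed between -0.01 and 0.03. The counts by role group below stand against these same shares of all tested genes. The 4 comparisons in one kind of cell share their DMSO libraries. Leaving out each library in turn ended no call with NOE and 1 or 2 calls in each comparison with ATRA or bexarotene, and it ended 10 of 38 calls with carbacyclin in IK6 cells and 3 of 43 in MIG cells.

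**Figure D1:**
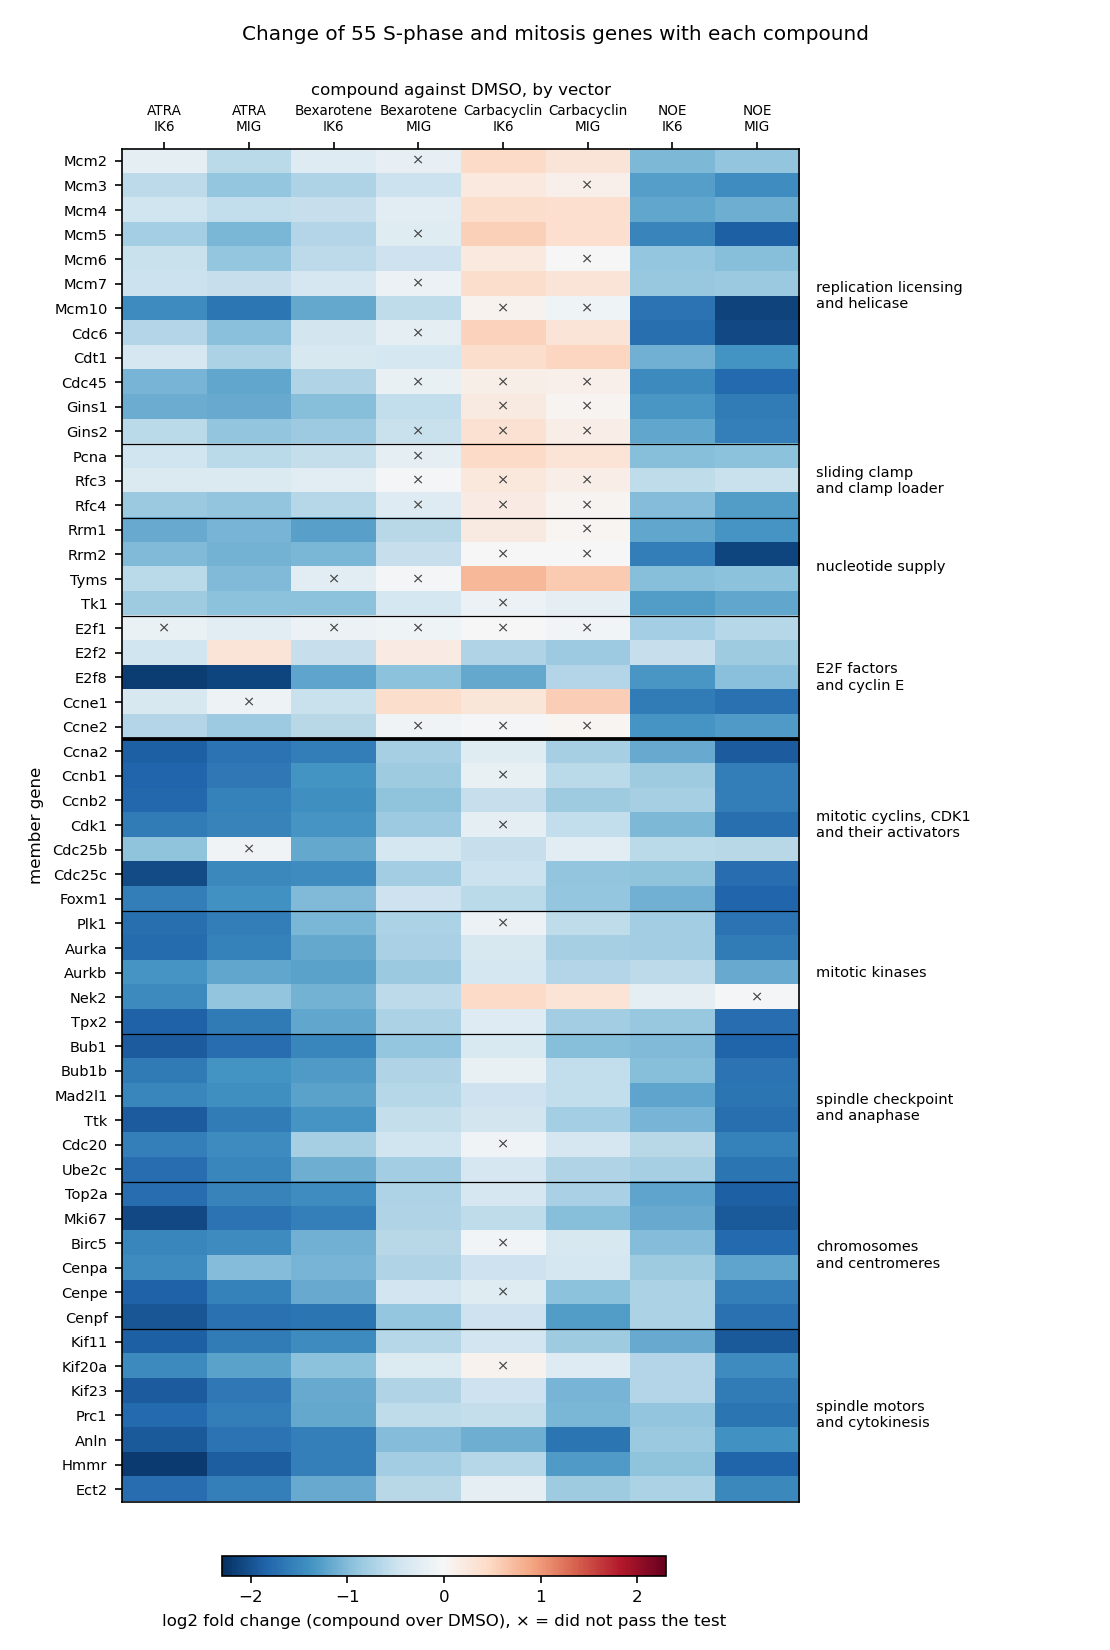
Log2 fold change of the 55 genes (rows, by role, S-phase genes above the thick line and mitosis genes below it) with each compound over DMSO in IK6 and MIG cells (columns). Crosses mark values that did not pass the test. In the carbacyclin columns, 12 of 24 S-phase genes rose in IK6 cells and 9 in MIG cells, and these rows are red. There 2 S-phase genes fell in IK6 cells and 3 in MIG cells, with E2f8 and E2f2 blue in both. Of all tested genes, 20.8% rose in IK6 cells and 24.7% in MIG cells with carbacyclin.

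The share of all counts that fell on the 55 genes weights each gene by its level. The mitosis genes Mki67 and Top2a had the highest mean levels (591 and 468 CPM over all libraries). The share therefore does not show the change of a typical member. In IK6 cells it was 0.300 ± 0.00899% with ATRA, 0.373 ± 0.0283% with bexarotene, 0.682 ± 0.0282% with carbacyclin and 0.385 ± 0.0236% with NOE, against 0.793 ± 0.024% with DMSO (SD over the 3 or 4 libraries). In MIG cells it was 0.268 ± 0.0236% with ATRA, 0.444 ± 0.0185% with bexarotene, 0.456 ± 0.0509% with carbacyclin and 0.232 ± 0.0153% with NOE, against 0.622 ± 0.0478% with DMSO. The share was highest in IK6 cells with DMSO and lowest in MIG cells with NOE.

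Among the 12 genes of origin licensing and the helicase (the MCM subunits Mcm2 to Mcm7, Mcm10, Cdc6, Cdt1, Cdc45, Gins1 and Gins2), all 12 fell with ATRA and with NOE in both kinds of cell. With bexarotene all 12 fell in IK6 cells and 6 in MIG cells. With carbacyclin none fell, while 8 rose in IK6 cells and 6 in MIG cells. Of all tested genes, 20.8% rose in IK6 cells and 24.7% in MIG cells with carbacyclin. With bexarotene 18.2% fell in MIG cells. In IK6 cells, Mcm6 (ENSMUSG00000026355) had 182, 169, 174 and 179 CPM with ATRA, 150.4, 161 and 186 CPM with bexarotene, 313, 273 and 295 CPM with carbacyclin, 138, 131, 137 and 137 CPM with NOE, against 261, 253, 243 and 253 CPM with DMSO. In MIG cells, Mcm6 had 118, 120.0, 128 and 104 CPM with ATRA, 152, 150.2 and 171 CPM with bexarotene, 212, 199, 212 and 255 CPM with carbacyclin, 104, 109.5, 117 and 112 CPM with NOE, against 218, 210.4, 240.2 and 205 CPM with DMSO. In IK6 cells the carbacyclin libraries of Mcm6 all lay above those with DMSO and the libraries of the other compounds all below. In MIG cells the carbacyclin libraries overlapped those with DMSO and the rest lay below them. The log2 changes of Mcm6 in IK6 cells were -0.52 ± 0.072 with ATRA, -0.61 ± 0.078 with bexarotene and -0.89 ± 0.072 with NOE (± SE throughout). With carbacyclin its change was 0.22 ± 0.077 (edgeR, adjusted p = 0.0223) in IK6 cells, a call that ended in 3 of the 7 fits that left out 1 library (highest adjusted p = 0.138, without IK6 carbacyclin replicate 1) and under 1 of the 8 other settings (highest adjusted p = 0.0774, with no filter), and 0.01 ± 0.072 in MIG cells, where it did not pass. The largest falls of the group with NOE were those of Mcm10 and Cdc6. Mcm10, which helps activate the helicase, changed by -1.71 ± 0.087 in IK6 cells and -2.14 ± 0.09 (edgeR, adjusted p = 2.24e-19) in MIG cells with NOE. Cdc6, the licensing factor, changed by -1.74 ± 0.11 in IK6 cells and -2.07 ± 0.12 in MIG cells with NOE. With ATRA, Mcm10 again had the largest change of the group, -1.44 ± 0.086 in IK6 cells and -1.65 ± 0.089 in MIG cells. With carbacyclin the largest rises were those of Mcm5 (0.55 ± 0.12, edgeR adjusted p = 0.000253) in IK6 cells and of Cdt1 (0.49 ± 0.087, edgeR adjusted p = 1.86e-05) in MIG cells. Of the exon bases of Gins2, 67.3% overlap Gse1 on the other strand, and 12.6% of those of Mcm7 overlap other genes, so reads of these pairs may be mixed, since no source used here gives the strand setting of the counting.

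The sliding clamp PCNA holds the polymerase on DNA, and the RFC proteins load it. Pcna, Rfc3 and Rfc4 all fell with ATRA and NOE in both kinds of cell and with bexarotene in IK6 cells, and none of the 3 passed with bexarotene in MIG cells. In IK6 cells, Pcna (ENSMUSG00000027342) had 233, 214, 219 and 215 CPM with ATRA, 199.6, 209.5 and 212 CPM with bexarotene, 476, 349 and 408 CPM with carbacyclin, 164, 149.5, 144 and 155 CPM with NOE, against 321, 305, 279.7 and 299 CPM with DMSO. In MIG cells, Pcna had 155, 145, 172 and 143 CPM with ATRA, 183, 172 and 249.5 CPM with bexarotene, 259, 255, 277 and 382 CPM with carbacyclin, 131, 122, 120.1 and 116 CPM with NOE, against 216, 209, 309 and 208 CPM with DMSO. Replicate 3 with DMSO and replicate 4 with carbacyclin, both libraries with a high ribosomal protein share, stood above the other MIG libraries of their groups. Pcna changed by -0.98 ± 0.12 (edgeR, adjusted p = 4.86e-08) in IK6 cells and -0.94 ± 0.12 (edgeR, adjusted p = 9.04e-08) in MIG cells with NOE. With carbacyclin it changed by 0.45 ± 0.13 (edgeR, adjusted p = 0.00589) in IK6 cells, where the call ended in 1 of the 7 fits that left out 1 library (highest adjusted p = 0.0795, without IK6 carbacyclin replicate 1). In MIG cells its change with carbacyclin was 0.32 ± 0.12 (edgeR, adjusted p = 0.0299), ended in 4 of the 8 fits that left out 1 library (highest adjusted p = 0.176, without MIG carbacyclin replicate 4) and under 1 of the 8 other settings (highest adjusted p = 0.218, with the compared groups only). Its pseudogene Pcna-ps2 had 17640 counts over all libraries against 312189 of Pcna, so some reads may be exchanged between them. Rfc4, of which 12.7% of exon bases overlap Eif4a2, had the largest change of the 3 with NOE in MIG cells (-1.29 ± 0.16).

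Deoxynucleotides are made by ribonucleotide reductase (subunits RRM1 and RRM2), thymidylate synthase (TYMS) and thymidine kinase (TK1). All 4 genes fell with ATRA and with NOE in both kinds of cell. In IK6 cells, Rrm1 (ENSMUSG00000030978) had 112, 103, 104 and 109 CPM with ATRA, 88.6, 97.6 and 113 CPM with bexarotene, 291, 249 and 286 CPM with carbacyclin, 104, 100.4, 107 and 104 CPM with NOE, against 249.8, 244, 226 and 233 CPM with DMSO. In MIG cells, Rrm1 had 86.8, 88.2, 88.3 and 78.4 CPM with ATRA, 113, 108 and 124 CPM with bexarotene, 179, 161, 179 and 215 CPM with carbacyclin, 60.6, 68.2, 74.3 and 75.6 CPM with NOE, against 177, 174, 195 and 169 CPM with DMSO. Except with carbacyclin, every treated library of Rrm1 lay below the DMSO libraries of its vector. In IK6 cells, Rrm2 (ENSMUSG00000020649) had 68.2, 71.7, 70.6 and 64.5 CPM with ATRA, 61.4, 75.6 and 66.5 CPM with bexarotene, 145, 134 and 143 CPM with carbacyclin, 40.7, 47.6, 42.6 and 54.0 CPM with NOE, against 133, 148, 137 and 140.4 CPM with DMSO. In MIG cells, Rrm2 had 36.7, 38.5, 51.1 and 41.3 CPM with ATRA, 61.2, 57.9 and 64.3 CPM with bexarotene, 92.9, 79.6, 98.1 and 82.6 CPM with carbacyclin, 17.9, 23.7, 21.3 and 19.0 CPM with NOE, against 92.0, 87.6, 93.1 and 82.4 CPM with DMSO. The same held for Rrm2, and the carbacyclin libraries of both genes overlapped those with DMSO. Rrm2 changed by -1.59 ± 0.094 (edgeR, adjusted p = 2.09e-15) in IK6 cells and by -2.11 ± 0.097 (edgeR, adjusted p = 1.9e-18) in MIG cells with NOE. In MIG cells that was a 4.33-fold fall. With carbacyclin Tyms rose by 0.77 ± 0.11 (edgeR, adjusted p = 1.63e-06) in IK6 cells and by 0.60 ± 0.11 (edgeR, adjusted p = 2.64e-05) in MIG cells, the largest rise of any member in each. Rrm1 rose in IK6 cells (0.21 ± 0.085, edgeR adjusted p = 0.0467, a call that ended in 5 of the 7 fits that left out 1 library (highest adjusted p = 0.196, without IK6 carbacyclin replicate 1) and under 5 of the 8 other settings (highest adjusted p = 0.126, with no filter)), Tk1 fell in MIG cells (-0.21 ± 0.077, edgeR adjusted p = 0.0221, ended in 3 of the 8 fits that left out 1 library (highest adjusted p = 0.111, without MIG carbacyclin replicate 4) and under 4 of the 8 other settings (highest adjusted p = 0.141, with the 3 libraries high in ribosomal protein RNA left out)), and Rrm2 passed in neither. With bexarotene, Tyms did not pass in either kind of cell, while Rrm1 changed by -1.26 ± 0.088 in IK6 cells and -0.64 ± 0.086 in MIG cells.

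The E2F factors and cyclin E genes, which act upstream of the others at the G1 to S transition, did not all change in one direction. E2f2, an activating E2F, rose with the retinoids in MIG cells and fell with them in IK6 cells. In IK6 cells, E2f2 (ENSMUSG00000018983) had 72.6, 73.7, 72.7 and 67.7 CPM with ATRA, 62.3, 69.4 and 72.1 CPM with bexarotene, 62.5, 59.5 and 60.8 CPM with carbacyclin, 65.4, 73.4, 61.2 and 70.3 CPM with NOE, against 101, 101, 95.9 and 94.4 CPM with DMSO. In MIG cells, E2f2 had 111, 114, 131 and 113 CPM with ATRA, 107, 107 and 114 CPM with bexarotene, 51.1, 53.5, 62.0 and 47.1 CPM with carbacyclin, 54.3, 57.3, 54.9 and 50.7 CPM with NOE, against 97.9, 95.9, 91.8 and 97.3 CPM with DMSO. In MIG cells every ATRA and bexarotene library lay above every DMSO library and the carbacyclin and NOE libraries lay below, while in IK6 cells the libraries of all 4 compounds lay below those with DMSO. With ATRA E2f2 changed by -0.45 ± 0.066 (edgeR, adjusted p = 1.09e-06) in IK6 cells and by 0.29 ± 0.066 (edgeR, adjusted p = 0.000515) in MIG cells. With bexarotene it changed by -0.53 ± 0.073 (edgeR, adjusted p = 3.76e-07) in IK6 cells and by 0.19 ± 0.071 (edgeR, adjusted p = 0.0349) in MIG cells, where the call ended in 7 of the 7 fits that left out 1 library (highest adjusted p = 0.173, without MIG bexarotene replicate 3) and under 4 of the 8 other settings (highest adjusted p = 0.217, with the 3 libraries high in ribosomal protein RNA left out). E2f8, an E2F that represses, fell in all 8 comparisons, with changes of -2.19 ± 0.11 (edgeR, adjusted p = 2.78e-17) in IK6 cells and -2.11 ± 0.11 (edgeR, adjusted p = 1.25e-16) in MIG cells with ATRA. E2f8 and E2f2 were the S-phase genes that fell with carbacyclin in both kinds of cell, and E2f8 changed by -1.18 ± 0.12 in IK6 cells and -0.67 ± 0.11 in MIG cells. E2f1 changed between -0.77 and -0.00254 over the 8 comparisons, and passed in 3 of them. Ccne1, cyclin E1, fell with NOE (-1.61 ± 0.1 in IK6 cells, -1.71 ± 0.11 in MIG cells). With bexarotene it fell in IK6 cells (-0.51 ± 0.11) and rose in MIG cells (0.40 ± 0.11, edgeR adjusted p = 0.00285). Its change with ATRA in MIG cells, -0.12 ± 0.1, did not pass. Exon overlaps reach 17.4% of bases for Ccne2 (with Ints8) and 11.2% for E2f8 (with Gm2788).

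Of the 31 mitosis genes, 22 fell in all 8 comparisons of a compound with DMSO, against 1 of the 24 S-phase genes and 403 of all 15699 tested genes (2.57%). The mitosis count was 18 without IK6 carbacyclin replicate 2 and 20 without IK6 DMSO replicate 2. It was 21 with no filter and 25 with the compared groups only, and the S-phase count was 1 in each of these. Among the mitotic cyclins, CDK1 and their activators (Ccna2, Ccnb1, Ccnb2, Cdk1, the phosphatases Cdc25b and Cdc25c, and the transcription factor Foxm1), all 7 fell with bexarotene and NOE in both kinds of cell. With ATRA all 7 fell in IK6 cells and 6 in MIG cells. With carbacyclin all 7 fell in MIG cells and 5 in IK6 cells. In IK6 cells, Ccna2 (ENSMUSG00000027715), cyclin A2, had 51.1, 50.4, 47.8 and 48.6 CPM with ATRA, 57.0, 60.0 and 65.4 CPM with bexarotene, 152, 141 and 159 CPM with carbacyclin, 79.7, 78.4, 84.1 and 83.6 CPM with NOE, against 183, 189, 179 and 178 CPM with DMSO. In MIG cells, Ccna2 had 40.3, 43.0, 46.4 and 36.7 CPM with ATRA, 77.1, 78.3 and 81.3 CPM with bexarotene, 77.9, 72.6, 83.6 and 84.1 CPM with carbacyclin, 31.6, 35.7, 36.2 and 39.2 CPM with NOE, against 137, 132, 139.7 and 129.7 CPM with DMSO. Every treated library of Ccna2 lay below every DMSO library of its vector. Ccna2 was 2.24-fold lower in IK6 cells and 3.77-fold lower in MIG cells with NOE (log2 changes -1.16 ± 0.063 in IK6 and -1.91 ± 0.065 in MIG cells). With carbacyclin its change was -0.27 ± 0.068 (edgeR, adjusted p = 0.00144) in IK6 cells and -0.76 ± 0.063 (edgeR, adjusted p = 7.09e-12) in MIG cells. Ccnb1, cyclin B1, changed by -1.82 ± 0.069 in IK6 cells and -1.64 ± 0.069 in MIG cells with ATRA. Cdc25c had the largest ATRA change of the group in IK6 cells (-2.05 ± 0.082, edgeR adjusted p = 6.42e-20). Its relative Cdc25b changed least of the group with ATRA, by -0.93 ± 0.055 (edgeR, adjusted p = 2.07e-15) in IK6 cells and -0.09 ± 0.055 in MIG cells, where it did not pass. Foxm1 fell in all 8, with its largest change with NOE in MIG cells (-1.82 ± 0.1). The pseudogene Ccnb2-ps had 5893 counts over all libraries against 70320 of Ccnb2. Exon overlaps reach 12.5% of bases for Ccna2 (with Exosc9) and 12.7% for Cdc25c.

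The mitotic kinases Plk1, Aurka and Aurkb and the spindle factor Tpx2, which activates Aurora A, fell in all 8 comparisons except Plk1 with carbacyclin in IK6 cells. In IK6 cells, Tpx2 (ENSMUSG00000027469) had 50.9, 47.7, 47.8 and 50.0 CPM with ATRA, 74.0, 75.0 and 85.7 CPM with bexarotene, 143, 140.3 and 154 CPM with carbacyclin, 98.8, 93.5, 94.0 and 101 CPM with NOE, against 178, 188, 174 and 172 CPM with DMSO. In MIG cells, Tpx2 had 47.1, 54.1, 56.9 and 47.5 CPM with ATRA, 98.5, 93.3 and 96.7 CPM with bexarotene, 94.2, 81.2, 92.6 and 93.8 CPM with carbacyclin, 40.4, 47.9, 50.1 and 50.1 CPM with NOE, against 157, 162, 159.7 and 154 CPM with DMSO. Every treated library of Tpx2 lay below every DMSO library of its vector. Nek2, a centrosome kinase, stood apart from them. In IK6 cells, Nek2 (ENSMUSG00000026622) had 28.8, 28.2, 25.9 and 29.5 CPM with ATRA, 35.0, 34.5 and 39.5 CPM with bexarotene, 106, 105 and 105 CPM with carbacyclin, 60.6, 66.0, 73.5 and 65.4 CPM with NOE, against 77.2, 78.4, 77.8 and 76.7 CPM with DMSO. In MIG cells, Nek2 had 52.8, 56.5, 56.9 and 50.7 CPM with ATRA, 67.5, 69.5 and 64.2 CPM with bexarotene, 137, 135, 127 and 107 CPM with carbacyclin, 91.8, 97.6, 104 and 103 CPM with NOE, against 104, 106, 95.7 and 103 CPM with DMSO. The carbacyclin libraries of Nek2 all lay above those with DMSO in both kinds of cell, and in MIG cells the NOE libraries overlapped those with DMSO. Nek2 rose with carbacyclin by 0.44 ± 0.069 (edgeR, adjusted p = 4.18e-06) in IK6 cells and by 0.31 ± 0.064 (edgeR, adjusted p = 0.000177) in MIG cells. With NOE its change was -0.22 ± 0.065 (edgeR, adjusted p = 0.00535) in IK6 cells and -0.04 ± 0.064 in MIG cells, where it did not pass. Tpx2, in contrast, changed by -0.88 ± 0.065 in IK6 cells and -1.75 ± 0.067 in MIG cells with NOE, and by -1.86 ± 0.067 (edgeR, adjusted p = 4.08e-21) in IK6 cells with ATRA.

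In the group of the spindle checkpoint and anaphase (Bub1, Bub1b, Mad2l1 and Ttk, which hold mitosis until chromosomes are attached, and Cdc20 and Ube2c, which act with the anaphase-promoting complex), all 6 genes fell with ATRA, bexarotene and NOE in both kinds of cell and with carbacyclin in MIG cells, and 5 fell with carbacyclin in IK6 cells. In IK6 cells, Bub1b (ENSMUSG00000040084) had 62.5, 58.9, 55.6 and 58.8 CPM with ATRA, 69.8, 73.3 and 77.7 CPM with bexarotene, 165, 152 and 166 CPM with carbacyclin, 94.9, 93.4, 86.8 and 94.5 CPM with NOE, against 177, 195, 181 and 176 CPM with DMSO. In MIG cells, Bub1b had 57.7, 61.4, 66.3 and 57.8 CPM with ATRA, 101, 95.5 and 96.9 CPM with bexarotene, 112, 101, 113 and 103 CPM with carbacyclin, 46.5, 50.6, 51.1 and 46.9 CPM with NOE, against 158, 160.4, 160.4 and 152 CPM with DMSO. No treated library of Bub1b reached a DMSO library of its vector. The largest changes of the group with ATRA were those of Bub1, at -1.92 ± 0.096 (edgeR, adjusted p = 2.26e-17) in IK6 cells and -1.75 ± 0.097 (edgeR, adjusted p = 2.75e-16) in MIG cells. Cdc20 was the member of the group with the smallest bexarotene change, -0.76 ± 0.12 in IK6 cells and -0.46 ± 0.11 in MIG cells. Of Ube2c, 22.8% of exon bases overlap Tnnc2.

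Chromosome and centromere genes include Mki67, the Ki-67 protein that coats mitotic chromosomes, and Top2a, the topoisomerase that untangles them, whose promoters are printed above. All 6 genes fell with ATRA, bexarotene and NOE in both kinds of cell and with carbacyclin in MIG cells, and 4 of 6 fell with carbacyclin in IK6 cells. In IK6 cells, Mki67 (ENSMUSG00000031004) had 301, 276, 259 and 297 CPM with ATRA, 351, 372 and 486 CPM with bexarotene, 687, 816 and 878 CPM with carbacyclin, 422, 593, 611 and 509 CPM with NOE, against 1235, 1202, 1157 and 1174 CPM with DMSO. In MIG cells, Mki67 had 268, 347, 349 and 286 CPM with ATRA, 691, 660.1 and 521 CPM with bexarotene, 651, 491, 577 and 313 CPM with carbacyclin, 212, 259.8, 281 and 305 CPM with NOE, against 1127, 1104, 770.1 and 1028 CPM with DMSO. Every treated library of Mki67 was below the DMSO libraries of its vector, although its spread within groups was wide in MIG cells, where bexarotene replicate 3, carbacyclin replicate 4 and DMSO replicate 3 were the lowest of their groups. Mki67 changed by -2.07 ± 0.17 (edgeR, adjusted p = 3.22e-12) in IK6 cells and -1.69 ± 0.16 (edgeR, adjusted p = 2.78e-10) in MIG cells with ATRA. That is 4.20-fold lower in IK6 cells and 3.22-fold lower in MIG cells. Top2a was 2.32-fold lower in IK6 cells and 3.69-fold lower in MIG cells with NOE. Its log2 changes were -1.21 ± 0.084 in IK6 cells and -1.88 ± 0.086 (edgeR, adjusted p = 1.5e-18) in MIG cells. Cenpf, a kinetochore protein, had the largest change of the group with carbacyclin in MIG cells (-1.29 ± 0.18, edgeR adjusted p = 3.63e-07).

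The spindle motors Kif11, Kif20a and Kif23, the midzone protein Prc1, the cytokinesis genes Anln and Ect2, and Hmmr, which binds microtubules, all fell with ATRA, bexarotene and NOE in both kinds of cell. With carbacyclin all 7 fell in MIG cells and 6 in IK6 cells. In IK6 cells, Kif11 (ENSMUSG00000012443) had 79.7, 77.2, 74.5 and 79.1 CPM with ATRA, 93.5, 105 and 114 CPM with bexarotene, 201, 203 and 227 CPM with carbacyclin, 119, 129, 139.9 and 125 CPM with NOE, against 286, 296, 271 and 288 CPM with DMSO. In MIG cells, Kif11 had 68.2, 76.5, 84.0 and 68.9 CPM with ATRA, 153, 139 and 137 CPM with bexarotene, 147, 114, 141 and 114 CPM with carbacyclin, 49.6, 61.6, 60.0 and 66.2 CPM with NOE, against 240.0, 233, 209.7 and 223 CPM with DMSO. None of the treated libraries of Kif11 overlapped those with DMSO. Hmmr had the largest ATRA change of all mitosis genes in both kinds of cell, -2.20 ± 0.1 (edgeR, adjusted p = 6.48e-18) in IK6 cells and -1.90 ± 0.1 (edgeR, adjusted p = 2.61e-16) in MIG cells. Anln, the anillin of the contractile ring, had the largest fall of all mitosis genes with carbacyclin, -1.12 ± 0.1 (edgeR, adjusted p = 1.06e-10) in IK6 cells and -1.68 ± 0.096 (edgeR, adjusted p = 5.78e-16) in MIG cells. Exon overlaps reach 29.3% of bases for Kif20a (with Cdc23) and 11.1% for Prc1.

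The S-phase and mitosis genes can be set against each other within a library, as the median log2 ratio of each set to the MIG DMSO mean. With DMSO the mitosis median minus the S-phase median was -0.18, -0.09 and -0.05 in IK6 cells (lowest, median and highest library) and -0.19, 0.05 and 0.09 in MIG cells. With ATRA it was -1.20, -1.18 and -1.10 in IK6 cells and -0.76, -0.67 and -0.59 in MIG cells, so mitosis genes lay further down than S-phase genes in every ATRA library. With bexarotene it ran from -0.82 to -0.60 in IK6 cells and from -0.62 to -0.32 in MIG cells. With carbacyclin it ran from -0.85 to -0.54 in IK6 cells and from -1.02 to -0.78 in MIG cells. With NOE the 2 kinds of cell lay on opposite sides of 0 without overlap, at 0.14 to 0.25 in IK6 cells and -0.46 to -0.35 in MIG cells. There the S-phase medians were -0.95 to -0.78 in IK6 cells and -1.29 to -1.25 in MIG cells, and the mitosis medians were -0.70 to -0.55 in IK6 cells and -1.75 to -1.63 in MIG cells. These medians are descriptions, as the libraries share one set of genes and one baseline.

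**Figure D2:**
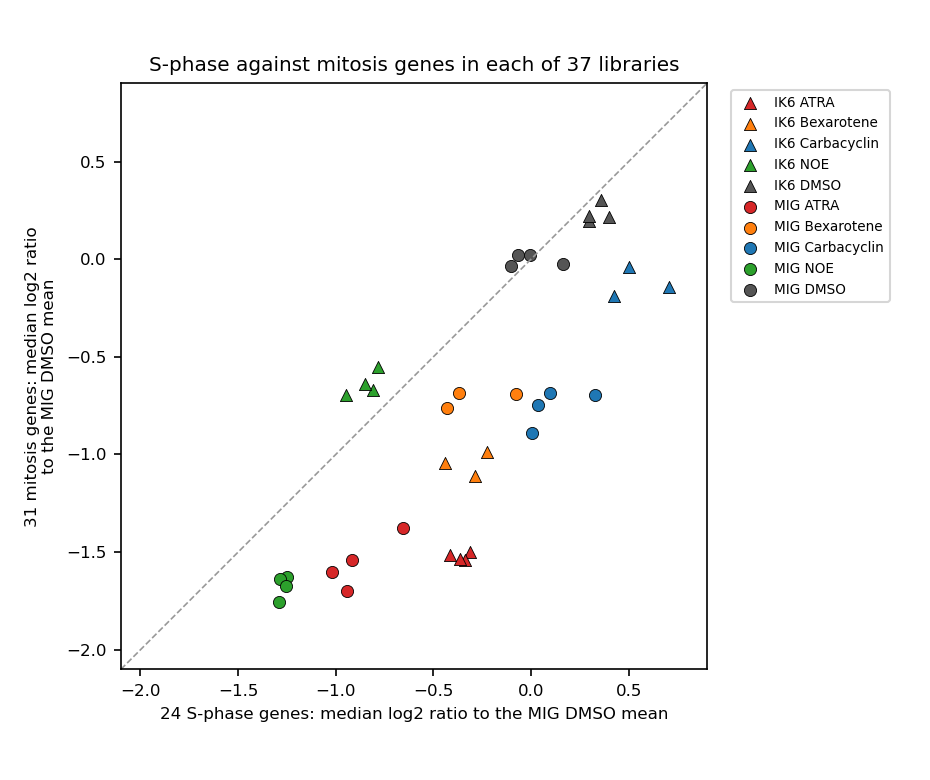
Each point is 1 library, at the median log2 ratio to the MIG DMSO mean of the 24 S-phase genes (horizontal axis) and of the 31 mitosis genes (vertical axis), with triangles for IK6 and circles for MIG cells. On the dashed line both sets have the same ratio, and the carbacyclin libraries sit below it with S-phase medians of 0.42 to 0.71 in IK6 cells and 0.01 to 0.33 in MIG cells (IK6 DMSO libraries lie at 0.30 to 0.40), while the IK6 NOE libraries are the only treated group above it.

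With carbacyclin 12 S-phase genes rose and 2 fell in IK6 cells, with a median log2 change of 0.23. In MIG cells 9 rose and 3 fell, with a median of 0.12. Among all tested genes, 20.8% rose and 18.8% fell in IK6 cells, and 24.7% rose and 23.3% fell in MIG cells. Of the mitosis genes, 23 fell and 1 rose in IK6 cells (median -0.39), and 30 fell and 1 rose in MIG cells (median -0.76). The gene that rose was Nek2 in both. The S-phase rise depended on single libraries. Without IK6 carbacyclin replicate 1, 7 rose and the median was 0.14. In MIG cells the median was 0.22 without DMSO replicate 3 and 0.04 without carbacyclin replicate 4. Without the 3 libraries high in ribosomal protein RNA, 9 S-phase genes rose and 2 fell in MIG cells, with a median of 0.10. With bexarotene in MIG cells the S-phase median was -0.26 with all libraries, -0.42 without bexarotene replicate 3 and -0.18 without DMSO replicate 3. It was -0.29 without the 3 libraries high in ribosomal protein RNA and -0.17 with library totals alone.

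**Figure D3:**
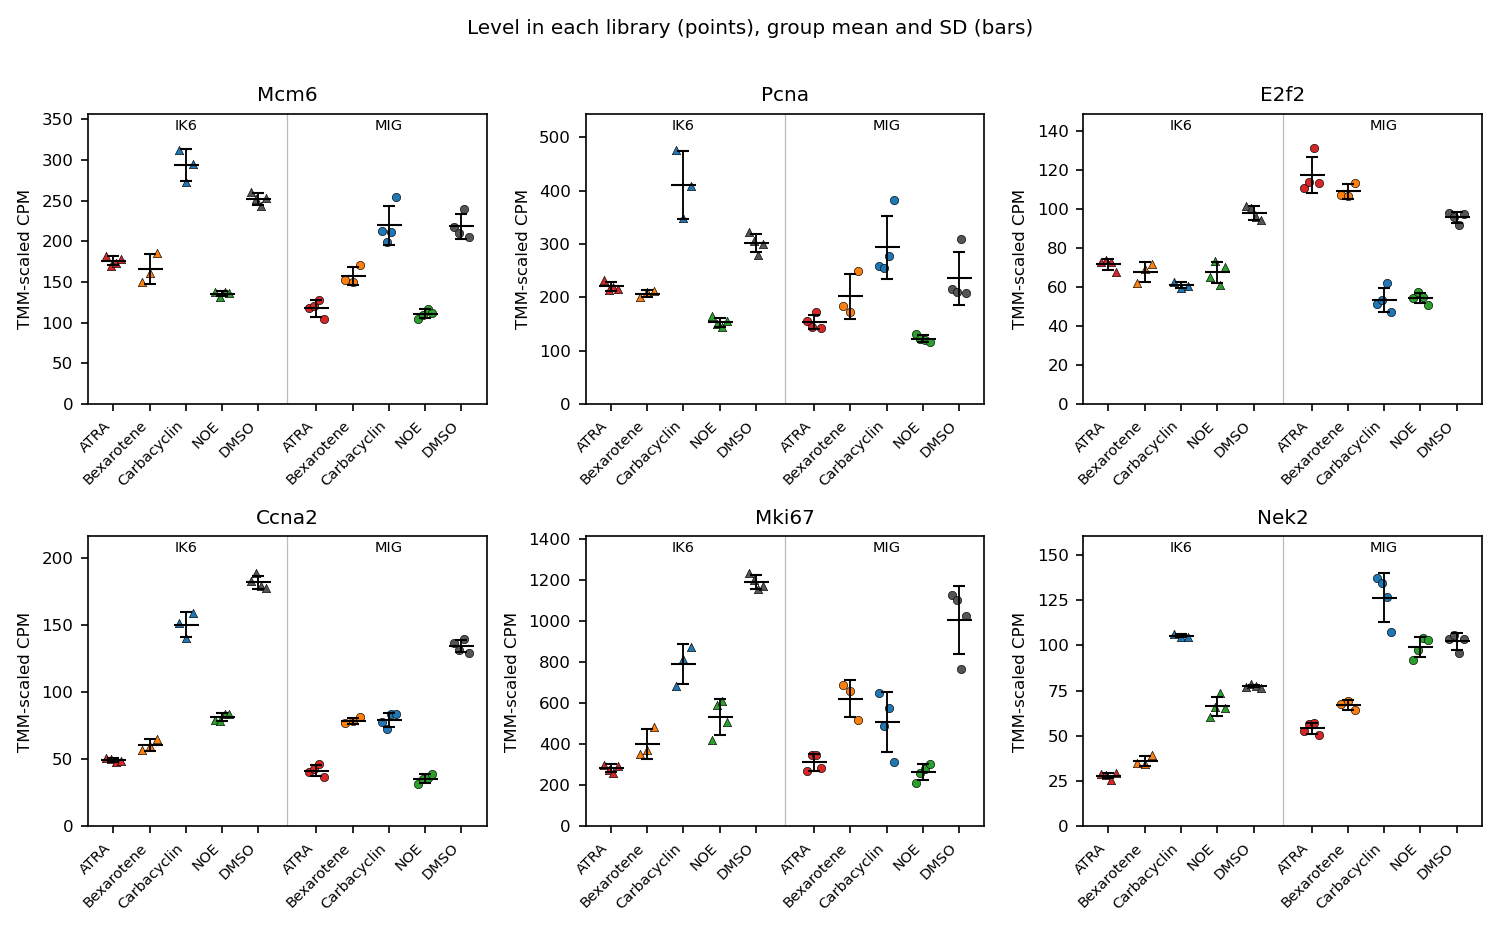
Levels in CPM of 3 S-phase genes (Mcm6, Pcna and E2f2) and 3 mitosis genes (Ccna2, Mki67 and Nek2) in every library, by treatment, with IK6 cells on the left of each panel and MIG cells on the right. Bars give the group mean and SD, and E2f2 shows the ATRA and bexarotene libraries of MIG cells above those with DMSO while Nek2 shows both carbacyclin groups above DMSO.

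IK6 cells had more RNA of these genes than MIG cells without a compound. With DMSO, 35 of 55 members were higher and 1, Nek2, was lower in IK6 cells, against 26.0% of all genes that passed in either direction and 13.3% higher. The higher ones were 16 S-phase genes (median log2 difference 0.34 over all 24) and 19 mitosis genes (median 0.23 over all 31). Without IK6 DMSO replicate 2, 12 mitosis genes were higher. Ccne1 differed most, by 0.78 ± 0.098 (edgeR, adjusted p = 9.83e-08), followed by Rrm2 (0.65 ± 0.092) and Ccne2 (0.59 ± 0.096). Ccna2 averaged 182 ± 4.91 CPM in IK6 cells and 134 ± 4.58 CPM in MIG cells with DMSO (SD, n = 4 each), a difference of 0.44 ± 0.063 (edgeR, adjusted p = 1.05e-06). Nek2 averaged 77.5 ± 0.740 CPM in IK6 cells and 102 ± 4.47 CPM in MIG cells (SD, n = 4 each), a difference of -0.40 ± 0.065 (edgeR, adjusted p = 9.43e-06). The differences of Mki67 (0.24 ± 0.16) and Mcm7 (0.03 ± 0.078) did not pass.

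The difference between the vectors depended on the compound. With NOE, 49 members were higher and 1 lower in IK6 cells (32.6% of all genes passed, 18.9% higher), and the median over mitosis genes was 1.01. With carbacyclin, 47 were higher and 1 lower (32.2% of all genes, 17.3% higher). With ATRA, 20 S-phase genes were higher in IK6 cells and 1 lower, but among mitosis genes 2 were higher and 4 lower (40.9% of all genes passed, 20.9% higher). Those few mitosis calls moved with single libraries, to 4 higher and 2 lower without MIG ATRA replicate 3 and to 2 lower without IK6 ATRA replicate 4. Under the other settings 2 to 5 were higher and 2 to 5 lower. With bexarotene, 20 of 31 mitosis genes were lower in IK6 cells and 0 higher, while 2 S-phase genes were higher and 1 lower (21.0% of all genes passed, 9.95% lower). The few S-phase calls moved as well, to 0 higher without MIG bexarotene replicate 2 or IK6 bexarotene replicate 2, to 0 higher and 3 lower without IK6 bexarotene replicate 3 and to 1 higher and 2 lower without MIG bexarotene replicate 1. Nek2 was lower in IK6 cells at all 5 treatments, with a difference of -0.95 ± 0.067 with ATRA and -0.26 ± 0.07 with carbacyclin at the extremes. The carbacyclin call ended in 2 of the 8 other settings (highest adjusted p = 0.158, with compared groups only). E2f2 was lower in IK6 cells with ATRA (-0.71 ± 0.067, edgeR adjusted p = 1.36e-10) and bexarotene (-0.69 ± 0.077, edgeR adjusted p = 1.44e-08).

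Whether the compound changes themselves differed between the vectors was tested as an interaction, the log2 change in IK6 cells minus that in MIG cells. For NOE 31 members passed upward and 0 downward, against 8.82% of all genes (6.62% upward), and 29 of them were mitosis genes. So the fall of those mitosis genes with NOE was smaller in IK6 cells. Ccnb1 had 83.5, 84.8, 83.6 and 89.1 CPM with NOE against 150.4, 154, 146 and 151 CPM with DMSO in IK6 cells. In MIG cells it had 39.6, 42.6, 42.7 and 39.8 CPM with NOE against 119.8, 125, 132 and 120.4 CPM with DMSO. Its change was -0.82 ± 0.067 in IK6 cells and -1.59 ± 0.068 in MIG cells, and the difference was 0.78 ± 0.094 (edgeR, adjusted p = 4.01e-07). Among S-phase genes the interaction with NOE passed for Mcm10 (0.43 ± 0.12) and Rrm2 (0.52 ± 0.13). The call of Mcm10 ended in 9 of the 16 fits that left out 1 library (highest adjusted p = 0.0776, without MIG NOE replicate 4) and under 1 of the 8 other settings (highest adjusted p = 0.158, with library totals alone) and that of Rrm2 in 1 of the 16 fits that left out 1 library (highest adjusted p = 0.0556, without MIG NOE replicate 1) and under 1 of the 8 other settings (highest adjusted p = 0.0865, with library totals alone). The S-phase median with NOE was -1.20 in IK6 cells and -1.30 in MIG cells.

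For bexarotene the interaction had the other sign, with 32 members passing downward and 0 upward, against 5.69% of all genes (2.56% downward, 3.13% upward). They were 24 mitosis and 8 S-phase genes, and the number of S-phase genes was 5 without IK6 bexarotene replicate 1. With the share of ribosomal protein RNA as a covariate, chosen after seeing the data, 31 mitosis and 17 S-phase genes passed downward. Ccna2 had 57.0, 60.0 and 65.4 CPM with bexarotene in IK6 cells and 77.1, 78.3 and 81.3 CPM in MIG cells, although its DMSO level was higher in IK6 cells. Its change was -1.58 ± 0.071 in IK6 cells and -0.77 ± 0.069 in MIG cells, a difference of -0.82 ± 0.096 (edgeR, adjusted p = 1.07e-06). For carbacyclin 16 members passed upward and 2 downward (8.83% of all genes, 5.66% upward, 3.17% downward). Of the members that passed upward all 16 were mitosis genes, led by Cenpf (0.81 ± 0.26, edgeR adjusted p = 0.0457), whose call ended in 11 of the 15 fits that left out 1 library (highest adjusted p = 0.127, without IK6 carbacyclin replicate 3) and under 4 of the 8 other settings (highest adjusted p = 0.155, with library totals alone). The downward ones were E2f8 (-0.51 ± 0.16) and Cdc25b (-0.28 ± 0.081). The call of E2f8 ended in 8 of the 15 fits that left out 1 library (highest adjusted p = 0.0879, without MIG carbacyclin replicate 3) and under 2 of the 8 other settings (highest adjusted p = 0.136, with the compared groups only), and that of Cdc25b in 6 of the 15 fits that left out 1 library (highest adjusted p = 0.074, without IK6 carbacyclin replicate 3) and under 3 of the 8 other settings (highest adjusted p = 0.0773, with library totals alone). For ATRA 2 members passed upward and 6 downward, against 9.78% of all genes (4.44% downward, 5.34% upward). The 2 upward were Mcm2 (0.40 ± 0.11, a call that ended in 3 of the 16 fits that left out 1 library (highest adjusted p = 0.0548, without MIG ATRA replicate 4)) and Mcm6 (0.38 ± 0.1), and the largest differences were those of Cdc25b (-0.84 ± 0.078, edgeR adjusted p = 2.76e-09) and E2f2 (-0.75 ± 0.094, edgeR adjusted p = 1.04e-06). Across the 55 members the changes in IK6 and MIG cells correlated with Pearson's r of 0.896 for ATRA, 0.851 for bexarotene, 0.897 for carbacyclin and 0.539 for NOE. These are descriptions over genes of shared libraries, which are not independent.

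**Figure D4:**
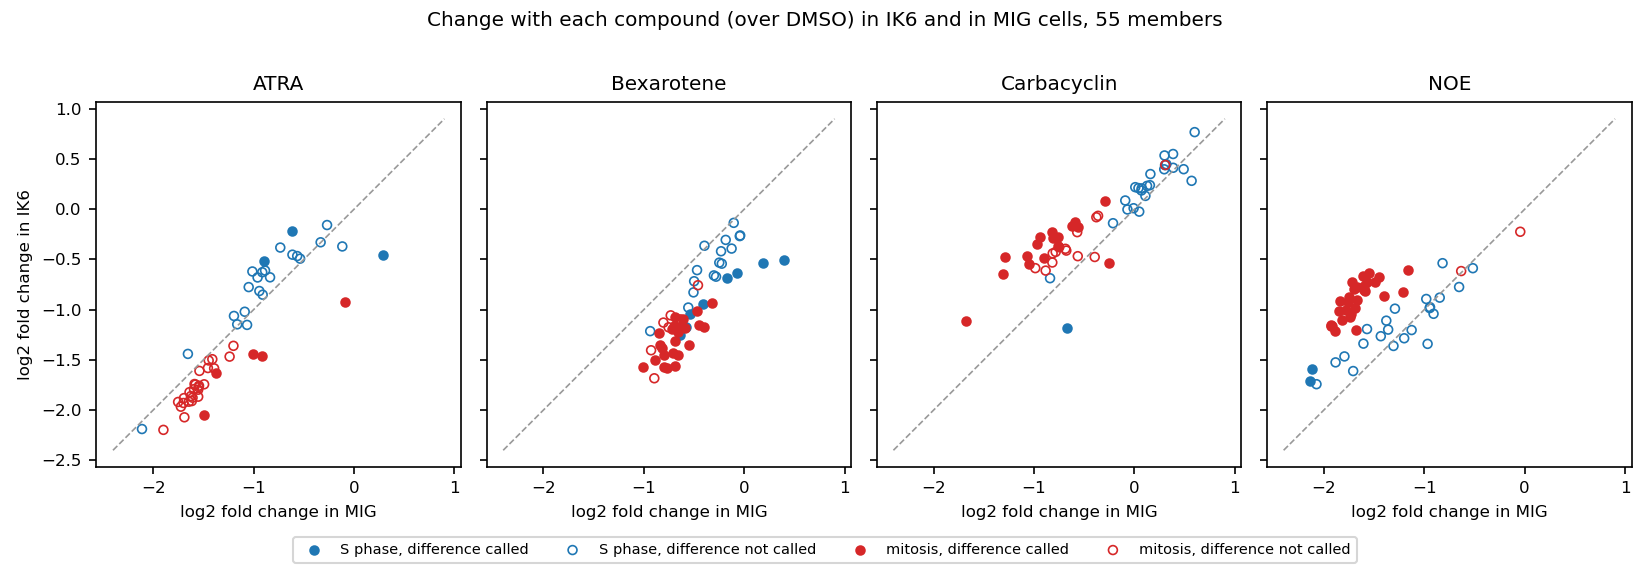
Each point is 1 of 55 genes, with its log2 fold change over DMSO in MIG cells (horizontal axis) and in IK6 cells (vertical axis), in 1 panel per compound. Filled points passed the interaction test, blue for S-phase and red for mitosis genes, and on the dashed line the changes are equal. Of the 31 mitosis genes, 24 passed below the line for bexarotene and 29 above it for NOE.

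ATRA and bexarotene, both retinoids, were compared at the same dose of 1 µM, in 1 pair per vector (2 pairs, each adjusted over all genes). In IK6 cells 31 members were higher with bexarotene and 1 was lower (21.9% of all genes passed, 11.7% higher). In MIG cells 51 were higher and 1 lower (23.6% of all genes, 12.6% higher). The lower gene was Cdc25b in both (-0.25 ± 0.06, edgeR adjusted p = 0.00237 in IK6 cells, -0.31 ± 0.06 (edgeR, adjusted p = 0.000123) in MIG cells). In IK6 cells that call ended in 1 of the 8 other settings (highest adjusted p = 0.126, with library totals alone). Mitosis genes were higher with bexarotene in 27 of 31 cases in IK6 cells (median 0.44) and in 30 of 31 in MIG cells (median 0.84). Of the S-phase genes 4 of 24 were higher in IK6 cells (median 0.02, 0.09 with library totals alone; 2 without ATRA replicate 2 or without bexarotene replicate 2) and 21 of 24 in MIG cells (median 0.47). For Mcm6 the 95% interval of bexarotene minus ATRA in IK6 cells was -0.25 to 0.07, and the difference did not pass. Kif11 had 93.5, 105 and 114 CPM with bexarotene and 79.7, 77.2, 74.5 and 79.1 CPM with ATRA in IK6 cells. In MIG cells it had 153, 139 and 137 CPM with bexarotene and 68.2, 76.5, 84.0 and 68.9 CPM with ATRA, without overlap in either. The difference was 0.42 ± 0.092 (edgeR, adjusted p = 0.000758) in IK6 cells and 0.94 ± 0.091 (edgeR, adjusted p = 7.27e-10) in MIG cells. E2f8 was also higher with bexarotene in both (0.97 ± 0.12 in IK6 cells, 1.17 ± 0.12 in MIG cells).

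Further genes of the same processes were taken from lists of other replication, mitosis and cell cycle control genes. These lists, like the members, were chosen with earlier results of these data known. Their counts are therefore not independent support for those of the members. Of 40 further replication genes, such as the polymerase, primase and ligase genes, 34 fell in IK6 cells and 35 in MIG cells with NOE, and 0 rose in either. Of all tested genes, 18.2% fell in IK6 cells and 22.3% in MIG cells with NOE. Lig1, the replicative ligase, changed by -1.64 ± 0.08 in IK6 cells and -2.19 ± 0.082 in MIG cells, and the primase subunit Prim1 by -1.55 ± 0.072 in IK6 cells and -1.87 ± 0.075 in MIG cells. With carbacyclin 11 rose and 5 fell in IK6 cells, and 11 rose and 6 fell in MIG cells. The shares of all tested genes with carbacyclin were 20.8% upward and 18.8% downward in IK6 cells, and 24.7% upward and 23.3% downward in MIG cells. The rises in this list were thus not far above the share of all genes. Uhrf1, which helps copy DNA methylation, changed by 0.47 ± 0.08 in IK6 cells and 0.58 ± 0.074 in MIG cells with carbacyclin. Dbf4, the activator of the kinase that fires origins, changed by -0.52 ± 0.068 in IK6 cells and -0.70 ± 0.063 in MIG cells. Of 42 further mitosis genes, 41 fell in IK6 cells and 41 in MIG cells with ATRA, where none rose (20.9% and 21.2% of all genes fell). Dlgap5, a spindle protein, changed by -2.11 ± 0.063 in IK6 cells and -1.72 ± 0.064 in MIG cells with ATRA. With carbacyclin 34 fell in IK6 cells and 36 in MIG cells, and 1 rose in each. Their interaction with NOE passed upward for 33 of 42 (6.62% of all genes) and that with bexarotene downward for 34 (2.56% of all genes).

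Of 16 further E2F, pocket protein and MuvB genes, 10 fell and 4 rose in IK6 cells and 10 fell and 3 rose in MIG cells with NOE. With NOE, 18.2% of all tested genes fell and 22.8% rose in IK6 cells, and 22.3% fell and 22.6% rose in MIG cells. Mybl2, the B-MYB partner of MuvB, changed by -0.99 ± 0.088 in IK6 cells and -1.37 ± 0.091 in MIG cells with ATRA. With NOE it changed by -1.15 ± 0.089 in IK6 cells and -1.73 ± 0.091 in MIG cells. With carbacyclin it rose in IK6 cells (0.56 ± 0.093) and had 0.19 ± 0.087 in MIG cells, where it did not pass. E2f7, the close relative of E2f8, changed by -1.51 ± 0.14 in IK6 cells and -2.22 ± 0.15 in MIG cells with NOE. Among 7 CDK inhibitor genes, Cdkn1a, which encodes p21, rose in all 8 comparisons, with 138 ± 13.8 CPM with carbacyclin in IK6 cells (SD, n = 3) and 174 ± 24.3 CPM in MIG cells (SD, n = 4). Over the 10 groups the mean of Cdkn1a ran from 47.6 to 218 CPM. Cdkn2c, which encodes p18, fell in all 8, with changes of -1.07 ± 0.072 in IK6 cells and -0.94 ± 0.072 in MIG cells with ATRA. The other inhibitor genes of the list are not described here. Of 7 genes of D-type cyclins and G1 kinases, 2 rose and 2 fell in IK6 cells and 1 rose and 4 fell in MIG cells with ATRA. Of 14 genes that restrain mitotic entry or belong to the anaphase-promoting complex, 8 fell in IK6 cells and 8 in MIG cells with ATRA, with medians of -0.21 in IK6 cells and -0.25 in MIG cells. Of 15 p53 target genes tested, 5 rose and 6 fell in IK6 cells and 6 rose and 6 fell in MIG cells with ATRA. These counts with ATRA stand against 22.7% of all tested genes upward and 20.9% downward in IK6 cells. In MIG cells the shares were 20.6% upward and 21.2% downward. The lists are short, and whether they differ from those shares was not tested.

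Across the 10 groups, the highest mean level of a member was 1.94 to 7.72 times its lowest (median 3.78), while the median coefficient of variation within groups was 4.01 to 21.2% (median 7.14%). The narrowest span was that of E2f1 (1.94-fold) and the widest that of Cdc6 (7.72-fold). The group with the highest mean was IK6 cells with carbacyclin for 18 of 24 S-phase genes and IK6 cells with DMSO for 29 of 31 mitosis genes. MIG cells with NOE had the lowest mean for 20 S-phase and 21 mitosis genes.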

How the data were processed

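The authors deposited raw counts of reads per gene for each of 37 libraries. Per the submitters' processing notes, BWA 0.5.9, HTSeq and mouse build mm9 were used; no source used here gives the strand setting, counting mode or annotation release. Per the labels' protocols, RNA was extracted with Trizol and libraries were made with a TruSeq kit. From those counts, edgeR 4.0.16 (R 4.3.3) fitted 1 robust quasi-likelihood model of 10 groups to 15699 genes that passed filterByExpr (minimum count 10, minimum total 15), with TMM scaling and 27 residual degrees of freedom. P-values were two-sided and adjusted over all tested genes (Benjamini-Hochberg, threshold 0.05). Standard errors were derived from the log2 change and the F statistic. The members and all gene lists were chosen with earlier results of these data known. Genes named are, in each role group, those with the largest changes past the threshold and those against their group, and per-library values are given for the 1 or 2 members of each with the highest mean CPM. No 2 libraries of a group agreed within sampling noise. Alternatives were RLE scaling, library totals alone, no filter, a mean of at least 5 CPM, the compared groups only, replicate number as a block, leaving out libraries, and DESeq2 1.42.0. A covariate of ribosomal protein share was added after seeing the data. The scripts were tested on simulated data.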

Additional observations from a re-analysis of the deposited data

Results flagged for a closer look

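Of 133 groups of 4 values tested for a library far from the others (Dixon's test at 95%), 8 stood out, where chance gives about 1 in 20. All 8 were in MIG cells. Pcna was highest at 309 CPM in replicate 3 with DMSO (the others 208 to 216 CPM) in a library high in ribosomal protein RNA, where 3 more genes stood out. Mcm7 was highest at 222 CPM in replicate 3 with DMSO (the others 177 to 182 CPM), Rfc3 was highest at 31.8 CPM in replicate 3 with DMSO (the others 23.5 to 24.9 CPM) and Cdc20 was highest at 93.0 CPM in replicate 3 with DMSO (the others 71.4 to 73.9 CPM). Mcm7 was highest at 271 CPM in replicate 4 with carbacyclin (the others 218 to 224 CPM), another library high in ribosomal protein RNA. Tpx2 was lowest at 81.2 CPM in replicate 2 with carbacyclin (the others 92.6 to 94.2 CPM). Rrm1 was lowest at 78.4 CPM in replicate 4 with ATRA (the others 86.8 to 88.3 CPM) and E2f2 was highest at 131 CPM in replicate 3 with ATRA (the others 111 to 114 CPM).

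The change with a compound differed between IK6 and MIG cells in the interaction test for 8 members with ATRA, 32 with bexarotene, 18 with carbacyclin and 31 with NOE (edgeR, adjusted p under 0.05). Of all tested genes, 9.78% passed with ATRA, 5.69% with bexarotene, 8.83% with carbacyclin and 8.82% with NOE. For ATRA, 8 of 55 members was thus not far above the share of all genes. The 5 largest log2 differences, IK6 change minus MIG change, were as follows. With ATRA they were those of Cdc25b (-0.84), E2f2 (-0.75), Cdc25c (-0.56), Nek2 (-0.55) and Cenpa (-0.44). With bexarotene they were those of Ccne1 (-0.91), Mki67 (-0.87), Ccna2 (-0.82), Ttk (-0.80) and Kif11 (-0.79). With carbacyclin they were those of Cenpf (0.81), Cenpe (0.67), Hmmr (0.66), Bub1 (0.62) and Kif23 (0.60). With NOE they were those of Cenpf (0.99), Kif23 (0.95), Hmmr (0.93), Cdc20 (0.91) and Plk1 (0.90). The call of Cenpe with carbacyclin ended under 4 of the 8 other settings (edgeR, highest adjusted p = 0.165). That of Mki67 with bexarotene ended under 2 (edgeR, highest adjusted p = 0.0685). That of Cenpf with NOE ended under 1 (edgeR, adjusted p = 0.0560). Each of these values came with library totals alone. The limits of Cenpf with carbacyclin are given above.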

How the results depend on the processing

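The number of members that passed stayed within 1.5 times its value under all alternatives except for 2 interactions. That with carbacyclin had 11 without the filter, 11 with the compared groups only and 28 with the covariate, against 18. That with ATRA had 13 with the compared groups only and 15 with the covariate, against 8. The cause was not tested. Leaving out 1 library at a time gave these ranges. Against DMSO they were 53 to 54 in IK6 and 52 to 53 in MIG cells for ATRA, 52 to 54 in IK6 and 42 to 46 in MIG cells for bexarotene, 32 to 37 in IK6 and 41 to 43 in MIG cells for carbacyclin, and 55 to 55 in IK6 and 54 to 54 in MIG cells for NOE. For IK6 over MIG the range was 25 to 27 under ATRA, 18 to 22 under bexarotene, 42 to 51 under carbacyclin, 48 to 51 under NOE and 25 to 38 under DMSO. For the interactions the range was 7 to 11 (ATRA), 25 to 33 (bexarotene), 13 to 19 (carbacyclin) and 28 to 31 (NOE). For bexarotene over ATRA they were 27 to 31 in IK6 and 47 to 52 in MIG cells. Of 798 gene results under the other settings, 129 values lost their call, 4 gained one and 7046 did neither. The replicate block is included here and gave 15 of the 129. Of the values with 1 library left out, 322 lost a call and 1 gained one. Signs turned for 3 genes that had not passed. Nek2 with NOE in MIG cells had 0.0195 with library totals and -0.0784 to 0.0120 with 1 library left out. Mcm6 with carbacyclin in MIG cells had -0.000277 with a mean of at least 5 CPM, -0.0270 without the 3 libraries high in ribosomal protein RNA and -0.0564 to 0.0519 with 1 left out. Mcm7, IK6 over MIG with DMSO, had -0.0127 to 0.112 with 1 left out. Replicate numbers did not pair the libraries taken as a whole. Deviations of same-numbered libraries had a median correlation of -0.02 over 156 pairs, and 7 of 37 libraries correlated best with their own number. Single pairs ran from -0.47 to 0.62, with 42 above 0.1. Whether some of the groups were paired by number was not tested. With the replicate block, the counts were 36 for carbacyclin in IK6 cells, 33 for IK6 over MIG with DMSO and 15 for the carbacyclin interaction, against 38, 36 and 18 without it. Wide errors were not limited to genes with low counts. For bexarotene over ATRA in MIG cells the SE was 0.25 for Gins2 (mean 10.9 CPM over all libraries) and 0.10 for Gins1 (9.62 CPM). It was 0.19 for Cenpf (119 CPM) and 0.17 for Mki67 (591 CPM).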
